A study of Mus musculus with 6 samples.

Results

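The cyclins of the cell cycle were followed in the spleen RNA of 3 garlic-fed mice and 3 control mice, with 1 Affymetrix array for each mouse. The list held 9 genes, namely the G1 cyclins Ccnd1, Ccnd2, Ccnd3, Ccne1 and Ccne2 and the S and M phase cyclins Ccna2, Ccnb1, Ccnb2 and Ccnf. They were taken by gene name, as every probe set that the array annotation gives to a single one of these genes. A probe set is a group of short oligonucleotides that read 1 mRNA, and the brightness of the RNA bound to it is its signal. In this way 8 of the 9 genes were found, on 21 of the 45037 probe sets left once the array's own controls were removed, and Ccnb1 was not analysed here. All mice were C57BL/6J males that were 8 weeks old when the diets began. The garlic-fed mice had 4% lyophilized raw garlic powder in a diet of casein and cornstarch, the control mice had 4% cellulose in its place, and the spleens were taken after 15 weeks. Garlic thus stood in for cellulose, and its addition cannot be told apart from the lack of cellulose.

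Cyclins are the regulatory subunits of the cyclin-dependent kinases (Cdks), and a Cdk is active only while its cyclin is bound. The D-type cyclins are made in response to growth signals and, with Cdk4 or Cdk6, begin the phosphorylation of the retinoblastoma protein, after which E2F factors drive the mRNAs of the E-type cyclins. Cyclin E with Cdk2 starts DNA replication, cyclin A acts through S phase and G2, and the B-type cyclins with Cdk1 bring cells into mitosis. In the mouse the spleen remains a site of erythropoiesis in adult life, so the organ holds dividing red cell precursors among mostly resting lymphocytes.

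The files hold MAS5 signals on a linear scale. The median signal over all probe sets was 119.7 to 128.8 with garlic and 127.9 to 132.2 in control mice. Within each group, arrays correlated with one another at a median r of 0.973 or higher. The summed signal of B cell markers lay between 37751 and 43901 in garlic-fed mice, against 40184 to 45565 in control mice. That of T cell markers lay between 11538 and 13035 in garlic-fed mice, against 12860 to 13430 in control mice. Pancreatic markers made up 0.00706%, 0.155% and 0.00858% of the signal in garlic-fed mice 1, 2 and 3. In control mice 1, 2 and 3 they made up 0.581%, 0.0746% and 0.268%. Of the 10 such markers listed 8 had a probe set, so the share of all pancreatic mRNAs can be higher. All results below are log2 differences of garlic-fed minus control mice from limma, a linear model fitted to all probe sets at once, with Benjamini-Hochberg adjustment of p over the 27022 probe sets bright enough to be tested. All 21 cyclin probe sets were among these. The p-values rest on the spread between these mice, with the variance of each probe set drawn toward that of probe sets of like brightness. In whole spleen, more cells that hold an mRNA cannot be told apart from more of that mRNA per cell.

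The largest log2 differences were those of the E-type cyclins. Ccne1 encodes cyclin E1, the partner of Cdk2 at the start of replication, and its brighter probe set (1441910_x_at) gave 1261.0, 1426.8 and 1687.0 in garlic-fed mice 1, 2 and 3, against 641.1, 824.5 and 707.7 in control mice 1, 2 and 3. Every garlic-fed spleen was above every control spleen, and the lowest garlic-fed value was well clear of the highest control value. The means were 1458 ± 215 in garlic-fed mice, against 724 ± 92.8 in control mice (s.d., n = 3 each). Ccne1 rose by a log2 difference of 1.01 ± 0.14 (s.e.), a 2.01-fold change, with an adjusted p of 0.0281 by limma. The suffix _x_at means that some of its oligonucleotides also match other sequences. The other Ccne1 probe set (1416492_at), without that suffix, gave 469.5, 660.8 and 652.2 in garlic-fed mice, against 347.0, 403.1 and 388.3 in control mice. The groups were again apart, with a smaller log2 difference of 0.63 ± 0.16 that missed the threshold (adjusted p = 0.170, limma).

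Ccne2, for cyclin E2, which also binds Cdk2, was read by a single probe set. Its signals were 1159.1, 1230.9 and 1927.8 in garlic-fed mice, against 610.7, 737.1 and 820.7 in control mice. The groups did not overlap, and garlic-fed mouse 3 stood above the other two garlic-fed mice. The log2 difference was 0.97 ± 0.19, with a 95% interval of 0.54 to 1.40, and it missed the threshold (adjusted p = 0.0886, limma).

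The 3 D-type cyclins gave different values although they share Cdk4 and Cdk6 as partners. Ccnd3, for cyclin D3, gave 3250.9, 3674.8 and 3942.7 at its brightest probe set (1415907_at) in garlic-fed mice, against 2214.1, 2640.0 and 2554.9 in control mice. The groups were apart, and the log2 difference of 0.55 ± 0.11 missed the threshold (adjusted p = 0.0767, limma). Both of its other probe sets had higher signals in every garlic-fed mouse too. The dimmest (1444323_at) gave 216.3, 220.8 and 228.2 in garlic-fed mice, against 137.7, 125.8 and 131.4 in control mice, a log2 difference of 0.75 ± 0.18 (adjusted p = 0.140, limma). Its signals were tightly grouped within each diet. The remaining one (1438805_at) gave 1181.7, 988.8 and 1039.4 in garlic-fed mice, against 876.6, 792.2 and 963.3 in control mice, where the groups lay close together and the log2 difference was 0.29 ± 0.12 (adjusted p = 0.428, limma).

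Ccnd1, for cyclin D1, and Ccnd2, for cyclin D2, had overlapping groups at their brightest probe sets. The contrast with Ccnd3 was not tested. At the brightest Ccnd1 probe set (1417420_at) the signals were 1864.9, 2061.9 and 1652.0 in garlic-fed mice, against 2016.1, 2036.0 and 1698.6 in control mice. The groups overlapped throughout, and the log2 difference was -0.04 with a 95% interval of -0.31 to 0.22 (adjusted p = 0.930, limma). A second Ccnd1 probe set (1448698_at) also overlapped, with an interval of -0.24 to 0.25, and the sign of both depended on the processing. The dimmest (1417419_at) differed from them. It gave 1390.0, 1361.6 and 1242.4 in garlic-fed mice, against 1413.7, 1746.6 and 1682.2 in control mice, so that all garlic-fed values were below all control values. Its log2 difference of -0.27 ± 0.11 was past an unadjusted p of 0.05 but missed the adjusted threshold (adjusted p = 0.412, limma), so the Ccnd1 probe sets gave unlike values.

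Ccnd2 was read by 7 probe sets, and both groups overlapped on each of them. At the brightest (1416122_at) the signals were 5181.5, 6426.6 and 5871.5 in garlic-fed mice, against 4923.5, 5044.8 and 5749.8 in control mice. The log2 difference there was 0.15 with a 95% interval of -0.07 to 0.38 (adjusted p = 0.643, limma), which leaves out a change the size of that in Ccne1. Over all 7 Ccnd2 probe sets the log2 differences ran between 0.05 and 0.16. At the 2 dimmest (1416123_at and 1416124_at) the intervals were wide, -0.47 to 0.58 and -0.44 to 0.76.

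Of the S and M phase cyclins, Ccna2 rose. It encodes cyclin A2, which binds Cdk2 in S phase and Cdk1 later, and its brighter probe set (1417910_at) gave 3224.9, 3966.5 and 3996.0 in garlic-fed mice, against 2146.8, 2157.1 and 2204.2 in control mice. The control spleens were nearly alike and all garlic-fed spleens were well above them. The means were 3729 ± 437 in garlic-fed mice, against 2169 ± 30.6 in control mice (s.d., n = 3 each), a log2 difference of 0.77 ± 0.10 or 1.71-fold (adjusted p = 0.0227, limma). The second Ccna2 probe set (1417911_at) gave 2498.3, 2722.0 and 4414.5 in garlic-fed mice, against 1907.4, 2175.4 and 2570.1 in control mice. Here garlic-fed mouse 1 lay below control mouse 3, so the groups overlapped, and the log2 difference was 0.50 ± 0.20 (adjusted p = 0.391, limma).

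Ccnf encodes cyclin F, which binds no Cdk but forms part of an SCF ubiquitin ligase. Its brighter probe set (1422513_at) gave 687.0, 758.3 and 908.1 in garlic-fed mice, against 402.6, 415.2 and 508.8 in control mice. The groups did not overlap, and the log2 difference of 0.83 ± 0.15 missed the threshold (adjusted p = 0.0685, limma). The second probe set (1443807_x_at) gave 226.7, 219.1 and 333.2 in garlic-fed mice, against 141.7, 132.8 and 179.1 in control mice, with a log2 difference of 0.77 ± 0.22 (adjusted p = 0.223, limma).

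Ccnb2 encodes cyclin B2, a partner of Cdk1 in mitosis, and had a single probe set. It gave 2130.3, 2287.8 and 3508.3 in garlic-fed mice, against 1495.7, 1807.5 and 2118.1 in control mice. The groups were apart only narrowly, since garlic-fed mouse 1 was just above control mouse 3, and garlic-fed mouse 3 stood far above the other two. The log2 difference was 0.53 ± 0.19 (adjusted p = 0.333, limma).

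**Figure D1:**
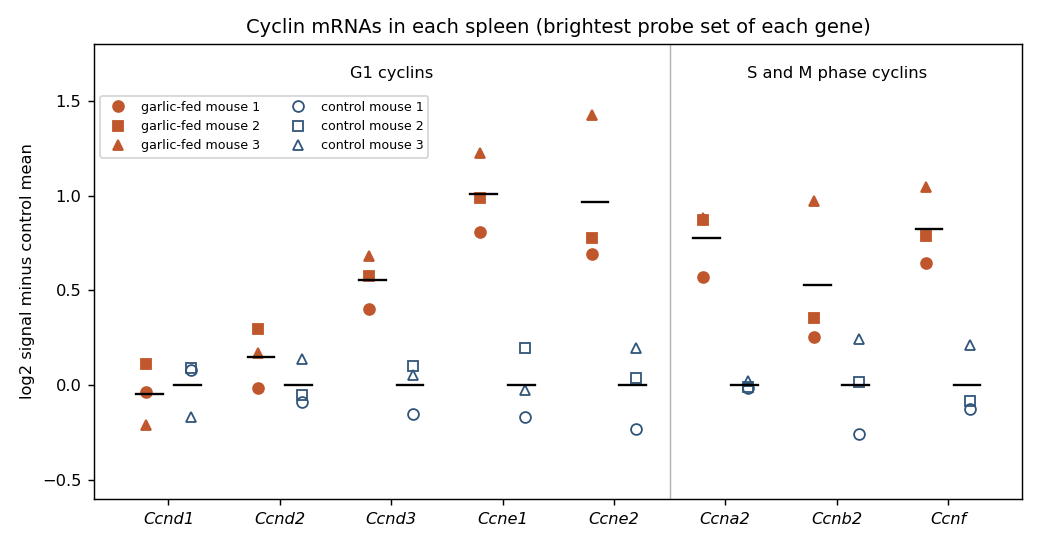
Log2 signal of each cyclin in each spleen at the brightest probe set of the gene, minus the mean of the control mice, with filled symbols for garlic-fed mice, open symbols for control mice and a bar at each group mean. The groups overlap for Ccnd1 and Ccnd2 and are apart for the other 6 genes, with the largest difference of means at Ccne1 (1.01).

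Counted over probe sets, 2 of the 21 cyclin probe sets were past the adjusted threshold of 0.05 with higher signals in garlic-fed mice, against 0.226% of all probe sets tested, and 0 were lower, against 0.0111%. At an unadjusted p under 0.05, 11 of 21 were higher, against 5.58% of all, and 1 was lower, against 5.44%. The signals of all garlic-fed mice were above those of all control mice on 10 of 21, against 7.52% of all, and below them on 1, against 9.29%. With each array centred on its median, the unadjusted calls over all probe sets turned to 2248 higher and 710 lower, in place of 1507 and 1471, while 11 cyclin probe sets were higher at that level and 0 lower.

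Represented by their brightest probe sets, 2 of the 8 cyclin genes passed the adjusted threshold as higher in garlic-fed mice, against 0.343% of all genes tested, and 0 as lower, against 0.00816%. At an unadjusted p under 0.05, 6 of 8 genes were higher, against 6.89% of all, and 0 were lower, against 6.24%. In 6 of 8 genes the garlic-fed mice lay above all control mice, against 9.13%, and in 0 below them, against 10.7%. The S and M phase cyclins had a median log2 difference of 0.77 and a range of 0.53 to 0.83 over 3 genes. The G1 cyclins had a median of 0.55 and a wider range of -0.04 to 1.01 over 5 genes, in which the E-type cyclins stood at the top and Ccnd1 and Ccnd2 at the bottom. The median over all genes tested was -0.03. The difference between G1 and S and M phase cyclins was not tested, and the range of the first encloses that of the second.

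**Figure D2:**
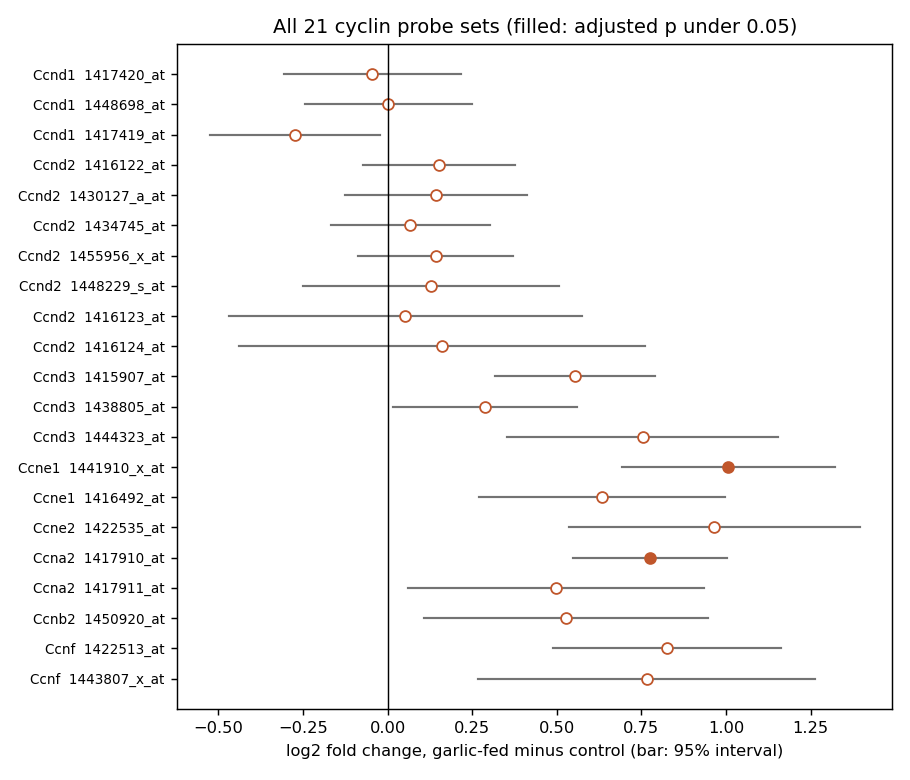
Log2 fold change of garlic-fed minus control mice for all 21 cyclin probe sets, with the 95% interval from limma as a bar and filled points at an adjusted p under 0.05. The 2 filled points are Ccne1 (1.01) and Ccna2 (0.77), and the 7 Ccnd2 probe sets all lie between 0.05 and 0.16.

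The mice of a group took similar places across the cyclins. Among garlic-fed mice, mouse 3 had the highest signal in 6 of the 8 genes and mouse 1 the lowest in 7. Among control mice, mouse 1 had the lowest signal in 7 genes and mouse 3 the highest in 5. Markers of erythroid precursors, of which 9 of 12 had a probe set, moved with the cyclins. Their summed signal was 40968, 43926 and 58140 in garlic-fed mice 1, 2 and 3, against 23637, 26309 and 30351 in control mice 1, 2 and 3. In both groups that order is the one most cyclins had. Of these 9 markers 4 passed the adjusted threshold as higher, against 0.343% of all genes tested, and 8 had all garlic-fed mice above all control mice, against 9.13%, with a median log2 difference of 1.27. The 5 markers of granulocyte precursors, which also divide, had that order of mice too. They summed to 1743, 1827 and 1901 in garlic-fed mice 1, 2 and 3, against 751, 1087 and 1180 in control mice 1, 2 and 3. Of these 5 markers 3 had all garlic-fed mice above all control mice, against 9.13%, with a median log2 difference of 0.92. Past the adjusted threshold were 0 of them, against 0.343%. In control mice only, that order was also found for markers of germinal centre B cells, T cells, megakaryocytes and fat tissue. In garlic-fed mice only, it was found for markers of plasma cells. Germinal centre B cells, which also divide, had a median log2 difference of -0.23 over 3 markers. The part of any of these cells in the cyclin signals was not tested. Without the array of most pancreatic signal in each group, which are garlic-fed mouse 2 and control mouse 1, Ccne1 differed by 0.93 (adjusted p = 0.216, limma) and Ccna2 by 0.72 (adjusted p = 0.203, limma).

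The promoters of Ccne1, Ccnb2 and Ccnf are shown because these genes belong to different phases and the mRNA values of all of them were higher in every garlic-fed mouse. The sequences are from RefSeq on mouse build GRCm38.p6. The table of promoter windows used here matched 5 of the 9 genes, and each line runs 5′ to 3′ on the gene's strand over the 250 bases before the start of the transcript. All of them lie on the minus strand, at chr7:38107491-38107740 for Ccne1, chr9:70421555-70421804 for Ccnb2 and chr17:24251410-24251659 for Ccnf. Capitals mark the letters CCAAT (the CCAAT box, read by NF-Y), TTTGAA (the core of the cell cycle homology region, or CHR, through which the DREAM complex holds G2 and M phase genes silent in resting cells) and GGGCGG (the GC box, read by Sp1), each searched on both strands.
Ccne1: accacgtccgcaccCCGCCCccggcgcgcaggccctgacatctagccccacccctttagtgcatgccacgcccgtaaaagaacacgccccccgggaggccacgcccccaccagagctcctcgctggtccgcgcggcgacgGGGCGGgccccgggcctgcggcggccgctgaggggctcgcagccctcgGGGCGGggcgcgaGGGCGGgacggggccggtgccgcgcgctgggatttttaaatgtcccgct
Ccnb2: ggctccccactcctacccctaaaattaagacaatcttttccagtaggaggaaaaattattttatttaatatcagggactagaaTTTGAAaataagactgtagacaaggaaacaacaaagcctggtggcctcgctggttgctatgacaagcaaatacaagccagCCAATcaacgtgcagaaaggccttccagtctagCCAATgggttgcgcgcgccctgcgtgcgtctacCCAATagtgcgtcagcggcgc
Ccnf: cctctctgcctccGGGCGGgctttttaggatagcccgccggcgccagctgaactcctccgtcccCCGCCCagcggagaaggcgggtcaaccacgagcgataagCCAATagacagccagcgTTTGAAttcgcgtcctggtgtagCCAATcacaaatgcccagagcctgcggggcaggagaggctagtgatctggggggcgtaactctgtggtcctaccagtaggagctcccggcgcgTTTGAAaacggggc

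Ccnb2 held 3 CCAAT boxes, starting at -87, -54 and -21 counted from the start of the transcript, and a TTTGAA at -167, with a further TTTGAA at 5 and a GC box at 20, both after the start. Ccnf held 2 CCAAT boxes, at -147 and -107, and 2 TTTGAA, at -130 and -14, besides 3 GC boxes at -237, -186 and -4, the last of which crosses the start and is not in capitals. The Ccne1 window held neither of these but had 4 GC boxes, at -236, -110, -62 and -49. Ccnd3, also higher in every garlic-fed mouse, is not shown. Each of its windows held 0 TTTGAA and 2 GC boxes, and only the downstream window held a CCAAT box. Over 32851 promoter windows of 300 bases, 37.4% held a CCAAT box, 17.9% a TTTGAA, 35.7% a GC box and 2.09% at least 2 CCAAT boxes together with a TTTGAA. The E2F spellings TTTCCCGC, TTTCGCGC, TTTGGCGC and TTTGCCGC were found in 2.26% of all windows, and in 0 of those of Ccne1, Ccnb2 and Ccnf. These matches describe letters only.

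The genes whose 6 signals lay closest to a cyclin were found by the mean absolute difference in log2 signal, once each gene was centred on its own mean over the 6 arrays, among 12261 genes. Closest to Ccne1 were Tfrc (0.060), which encodes the transferrin receptor, Gfi1b (0.068), a transcriptional repressor of erythroid and megakaryocytic cells, Abcb10 (0.070), a mitochondrial transporter, Slc38a5 (0.072), an amino acid transporter, and Mboat2 (0.078), a lysophospholipid acyltransferase. Closest to Ccna2 were Slc25a38 (0.052), a mitochondrial glycine carrier used in heme synthesis, Slc16a1 (0.054), a lactate transporter, Mki67 (0.057), which encodes the Ki-67 antigen of dividing cells, Tyms (0.062), for thymidylate synthase, and Gypc (0.074), for glycophorin C. This likeness includes the difference between the diets, and therefore favors genes of about the same fold change.

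The lists of other cell cycle genes held 82 genes, which include proliferation markers and cyclins of other roles, and 78 were tested. Of these, 3 passed the adjusted threshold with higher signals in garlic-fed mice, against 0.343% of all genes tested. With lower signals 0 passed, against 0.00816%. Their median log2 difference was 0.18. The list of Cdks with the Cdk7 partners had 0 of 7 past the threshold and a median of -0.05. With so few of all genes past the threshold, a count of 0 in a short list says little about that list. Cdk1, the partner of cyclins A2 and B2, gave 1994.1, 2446.6 and 3093.7 in garlic-fed mice, against 1495.5, 1895.2 and 1903.1 in control mice, with a log2 difference of 0.49 ± 0.16 (adjusted p = 0.276, limma). The groups were apart, whereas Cdk7, the kinase that activates other Cdks, and Ccnh, its cyclin, had overlapping groups and differences of -0.23 and -0.12. The Cdk inhibitors had 0 of 6 past the threshold. Cdkn1a (p21) and Cdkn1b (p27) differed by 0.46 and 0.18, with overlapping groups.

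The Rb and E2F list, which lies between the D- and E-type cyclins, had 1 of 13 past the threshold, against 0.343% of all genes. The median of the list was 0.32. Tfdp2 encodes a DNA-binding partner of E2F and gave 2782.8, 2637.9 and 3105.6 in garlic-fed mice, against 1538.8, 1724.6 and 1983.2 in control mice. It rose by 0.70 ± 0.12 on the log2 scale (adjusted p = 0.0480, limma), and without any 1 of the 6 mice its adjusted p was 0.0572 to 0.207. E2f8 and E2f2, named here after their values were seen, differed by 0.84 and 0.50 with groups that did not overlap, and both missed the threshold (adjusted p = 0.0668 and 0.0760, limma). E2f8 is a repressor of the E2F family and E2f2 one of its activators.

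Among genes of cyclin destruction 1 of 13 passed, against 0.343% of all genes tested, with a list median of 0.14. Fbxo5 encodes Emi1, which inhibits the anaphase-promoting complex and thereby protects cyclins A and B, and gave 1878.5, 2189.5 and 2346.4 in garlic-fed mice, against 1057.3, 1344.5 and 1263.4 in control mice. It rose by 0.81 ± 0.13 (adjusted p = 0.0411, limma). That call held without garlic-fed mouse 1 but not without any other mouse, with adjusted p of 0.0559 to 0.175 (limma). The Cdc25 phosphatases and Wee1 kinases, which set the activity of Cdks, had 0 of 5 past the threshold. Cdc25b was higher in every garlic-fed mouse at 0.47 ± 0.12 (adjusted p = 0.174, limma), and Cdc25a differed by 0.20 with overlapping groups.

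The DREAM and Myb list had 0 of 8 past the threshold and a median of 0.14, with 0.44 for Foxm1 and 0.38 for Mybl2, both drivers of G2 and M phase genes, and 0.21 for Myb. Of the other cyclins, most of which act in transcription or have no set phase, 0 of 10 passed, and their median was 0.01. Ccnt1, the cyclin T1 of transcription elongation, differed by 0.30, Ccnl1, a cyclin of RNA splicing, by 0.29 and the bright Ccni by -0.07. The proliferation markers had 1 of 16 past the adjusted threshold, against 0.343% of all genes, and 10 past an unadjusted p of 0.05, against 6.89%, all higher, and a median of 0.33. Mki67 gave 10017.1, 11802.6 and 12616.6 in garlic-fed mice, against 7032.9, 7074.5 and 7573.7 in control mice, so that the groups were apart. It rose by 0.66 ± 0.09 (adjusted p = 0.0281, limma), a call lost without control mouse 1, 2 or 3 or garlic-fed mouse 2 (adjusted p of 0.0628 to 0.155).

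The sizes of the Ccne1 and Ccna2 differences were steadier than their calls, in part because many settings could not move them. Changes of the floor, filter or trend, the methods' test on log2 signals and the block left the sizes as they were. Over all 17 other settings, which include fits without 1 or 2 mice, the log2 difference of Ccne1 stayed between 0.90 and 1.11. That of Ccna2 stayed between 0.72 and 0.88. Each passed the adjusted threshold in 8 of the 17. Without control mouse 1, 2 or 3 or garlic-fed mouse 2, neither passed, with adjusted p of 0.0606 to 0.145 for Ccne1 and 0.0545 to 0.124 for Ccna2 by limma. With all probe sets tested, dim ones included, the adjusted p was 0.294 for Ccne1 and 0.229 for Ccna2.

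**Figure D3:**
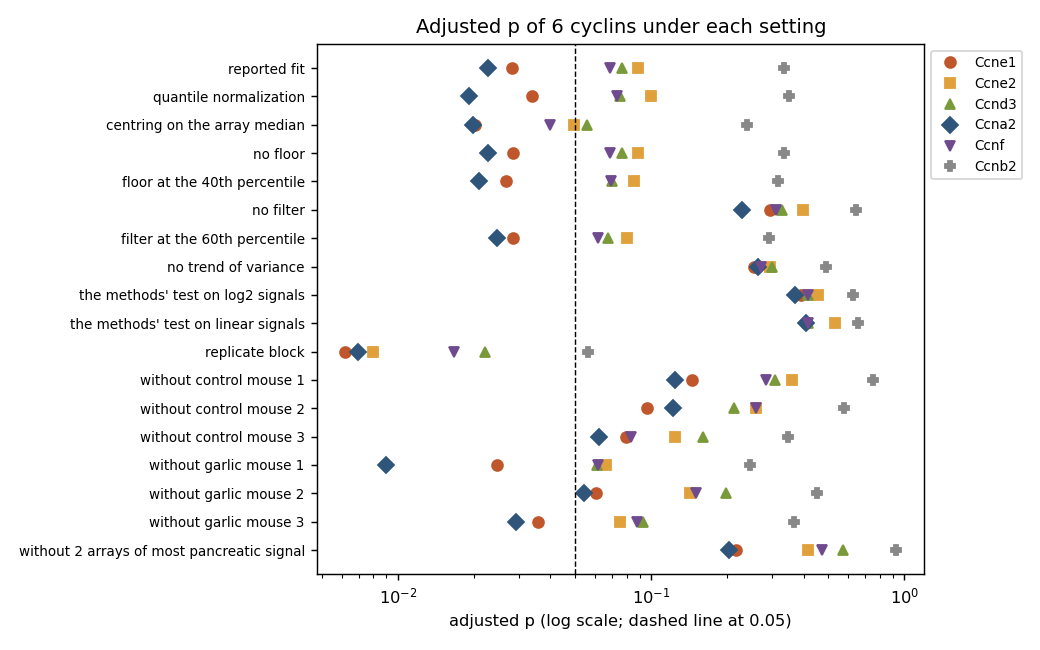
Adjusted p on a log axis for the 6 cyclins whose groups did not overlap at their brightest probe sets, under the reported fit and 17 other settings, with a dashed line at 0.05. Ccne1 and Ccna2 lie left of the line in the reported fit and in 8 other settings, Ccnd3 in 1, Ccne2 and Ccnf in 2 each, and Ccnb2 in 0.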

How the data were processed

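RNA from the spleens of 3 garlic-fed and 3 control mice was measured on 1 Affymetrix array each. The deposited values are intensity values, namely MAS5 signals on a linear scale that the authors made. Each array has a trimmed mean (2% left out at each end) of 500, a scaling read from the values, and the MAS5 version is not given in the sources used here. Precision is limited by the number of arrays.

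The 64 control probe sets were removed. Of 45037 others, 34945 carry 1 gene name in the array annotation, 932 several and 9160 none, and only those with 1 name were used as genes. Signals were raised to at least 23.5 (the 20th percentile) before log2 was taken, and 27022 probe sets averaging above 6.08 on that scale (the 40th percentile) were tested. The test was limma 3.58.1 in R 4.3.3, with a trend of variance and Benjamini-Hochberg adjustment. A gene is represented by its brightest probe set. Figures were drawn with matplotlib 3.10.9.

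All cyclins were named, with all of their probe sets or their range. Of each other cell cycle list, the genes past the adjusted threshold were named, otherwise the 2 of lowest p and the brightest. Named as well were the 5 genes closest in pattern to the brightest G1 and the brightest S and M phase cyclin past the threshold. The cyclins and all lists were chosen with earlier results of these data known.

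As alternatives, the arrays were quantile normalized or centred on their medians, the floor was dropped or raised to the 40th percentile, the filter was dropped or raised to the 60th, and the trend of variance was left out. The methods' test was run on log2 and on linear signals, replicate numbers were fitted as a block, each array was left out in turn, and the probe sets of a gene were averaged. A fit without the array of most pancreatic signal in each group was added after seeing the data. In simulated data of 3 arrays against 3 with 27022 probe sets, the procedure recovered 45.0% of log2 changes of 1, 70.0% of 1.5 and 87.5% of 2, with 4 false calls among 131. Log2 changes smaller than 1, as in every cyclin that missed the threshold, were not simulated. A cyclin that missed the threshold may still differ.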

Additional observations from a re-analysis of the deposited data

How the results depend on the processing

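The log2 difference kept its sign under every alternative run for Ccne1, Ccne2, Ccna2, Ccnb2, Ccnf and Ccnd3. It also did so for the brightest Ccnd2 probe set and the Ccnd1 probe set 1417419_at. The medians of the G1 and the S and M phase cyclins moved by less than the spread between garlic-fed mice (s.d. of 0.14 and 0.20). Settings that change only the test or the set tested could not move them. The calls moved more. Over all probe sets, 61 were higher and 3 lower in garlic-fed mice. Median centring of the arrays made 147 higher. Without the filter on dim probe sets 4 were higher and 7 lower. Without the trend of variance, and by the methods' test on log2 or linear signals, 0 were higher and 0 lower, and at an unadjusted p under 0.05 these 3 called 1338, 1201 and 1135 higher and 1474, 1347 and 1379 lower. Leaving out 1 array gave 0 to 103 higher and 0 to 33 lower, and leaving out the array of most pancreatic signal in each group gave 8 and 28.

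Of the cyclin probe sets, 2 were higher, with 4 under median centring, 0 without the filter, without the trend, by either methods' test and without the arrays of most pancreatic signal, and 0 to 2 with 1 array left out. The other cell cycle genes had 3 higher, with 6 under median centring, 0 in those same settings and 0 to 4 with 1 array left out. The added cyclin calls under median centring were Ccne2 and Ccnf. Without the filter more probe sets are adjusted over, and the trend of variance is fitted to the dim ones too. The cause of the changes in calls was not tested in any setting. The fits without 1 or 2 arrays also hold fewer samples.

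The replicate numbers were also fitted as a block. The deviations of same-numbered mice from their group means correlated at 0.00064, -0.18 and 0.078. Over all probe sets tested these values show no pairing by number and the labels name none, but with 3 mice in each group they cannot exclude one. Among the cyclins, mouse 1 had the lowest signal in 7 of 8 genes in each group. Whether that shared order goes with the replicate number was not tested. With the block 270 probe sets were higher and 25 lower, 5 of them cyclin probe sets that were higher, and 10 other cell cycle genes were higher. The blocked adjusted p was 0.0062 for Ccne1 and 0.0070 for Ccna2 (limma), and 1 of 3 same-number pairs was below 0.

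Signs turned only for small differences of Ccnd1, Ccnd2 and Ccni. Ccnd1 1417420_at was 0.033 under median centring and -0.13 to 0.038 with 1 array left out. Ccnd1 1448698_at was -0.012 under quantile normalization, -0.082 to 0.081 with 1 array left out and -0.12 without the arrays of most pancreatic signal. In that last setting Ccnd2 1430127_a_at was -0.0080, 1434745_at -0.071, 1448229_s_at -0.11, 1416123_at -0.27 and 1416124_at -0.012. With 1 array left out, Ccnd2 1434745_at was -0.044 to 0.14, 1448229_s_at -0.050 to 0.30, 1416123_at -0.25 to 0.21 and 1416124_at -0.055 to 0.45. Ccni was 0.0065 under median centring. The dimmest probe sets of Ccnd2, Ccnd3 and Ccnf had the widest intervals of their genes.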
